A study of Mus musculus with 64 samples.

Results

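A set of 9 genes of the hypothalamic releasing hormones and the corticotropin-releasing hormone system was followed in the brains of mice given psilocybin or vehicle: Crh, Crhbp, Crhr1, Crhr2, Trh, Ghrh, Gnrh1, Kiss1 and Sst. The set was made by gene name and not by a filter on measured values, but with earlier results of these data known. It is 9 of the 55401 genes in the deposited count table. Of these, 8 passed the filter on low counts, together with 18971 genes in all, and 1 (Kiss1) was listed at 0 in every library. Male C57BL/6J mice, group-housed on chow and 10 weeks old, were injected once into the peritoneum with psilocybin at 3 mg/kg or with vehicle (saline of normal tonicity), and hypothalamus and PFC (labelled frontal cortex) were taken 3 h or 4 weeks later. By the study's methods all mice had also been sham injected with saline on the preceding 3 days. The 2 regions, 2 treatments and 2 times give 8 groups of 8 samples, the 2 tissues of a mouse being separate samples of 32 mice, and the mice of the 4 week groups were also older at harvest, so that time since injection and age cannot be told apart.

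These genes encode the signals by which hypothalamic neurons control the pituitary, and a binding protein and receptors for one of them. Crh drives release of corticotropin and so the glucocorticoid stress response, Trh drives thyrotropin, Ghrh drives growth hormone, Gnrh1 drives the gonadotropins, and kisspeptin from Kiss1 excites the Gnrh1 neurons. Somatostatin, the product of Sst, inhibits growth hormone release. Crhr1 and Crhr2 are the G protein-coupled receptors for Crh and the urocortins, and Crhbp binds Crh outside the cell and limits its action. Outside the hypothalamus, Crh and Sst are also made by cortical interneurons.

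Sst is a textbook target of cAMP signalling through the cAMP response element, and the letters of that element were searched in the promoters of the members. The matches of Sst and Trh are shown because these were the most abundant members in the hypothalamus, and those of Crhbp and Ghrh because they bear on the region and co-variation results. RefSeq start-site windows (GRCm38.p6, from 250 bases before to 50 bases after the start) were matched for 7 of the 9 members, with 2 windows for Ghrh. No window was matched for Crh or Gnrh1, so their promoters were not searched. The half-site TGACG, on either strand, was present in the windows of Crhbp, Trh, Ghrh, Kiss1 and Sst and in 20.8% of 32851 windows, and the full palindrome TGACGTCA, which contains 2 overlapping half-sites, was present among the members in Sst and in 1.79% of all windows. For each of these 4 genes the 30 bases around a match are given with the match in capitals, 5′ to 3′ on the strand of the gene. For Ghrh this is the match in the first window, and the 2 in the second window and the match of Kiss1 are not shown.
Sst, chr16:23890874-23890903, minus strand: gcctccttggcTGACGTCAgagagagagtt
Trh, chr6:92244730-92244759, minus strand: cccccggctctgcCGTCAgcgcccctgcat
Crhbp, chr13:95444879-95444908, minus strand: agagctggaccctCGTCAttgccacgcatt
Ghrh, chr2:157346657-157346686, minus strand: cttaagatgagatCGTCAgggcctgggcat
The match began at position -48 from the start in Sst, -96 in Trh, -64 in Crhbp and -18 in this window of Ghrh. A match is a description of letters and not a site of binding.

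Of the 64 libraries, 62 were used, with 8061033 to 70361839 counted reads each and a median of 18287978.5. The hypothalamus vehicle 3 h replicate 2 and PFC psilocybin 4 weeks replicate 3 libraries held under 1000000 counted reads and were left out, leaving 31 libraries a region and 7 or 8 a group. A list of 7 hypothalamus marker genes (Nkx2-1, Nkx2-4, Six6, Rax, Otp, Sim1 and Fezf1) summed to between 50.6 and 96.8 normalised counts per 1000000 counted reads (CPM) in the hypothalamus libraries and to at most 3.09 CPM in the PFC libraries, and 4 genes of cortical excitatory neurons summed to between 1267 and 1856 CPM in the PFC and to at most 116.8 CPM in the hypothalamus. The hypothalamus psilocybin 4 weeks replicate 5 library stood apart: Oxt and Avp, the peptides of magnocellular neurons, summed to 2322 CPM there against 128 to 548 CPM in the other hypothalamus libraries. In it 4 arcuate genes (Pomc, Agrp, Npy and Cartpt) summed to 400.4 CPM, against at most 260.4 CPM in the other hypothalamus groups. These arcuate genes also summed to between 68.1 and 159.8 CPM in the PFC libraries. The comparisons of the members that use the group of that library are given with and without it. Other libraries stood apart in markers of neighbouring tissue or of immune cells. Among hypothalamus vehicle 4 weeks mice, 6 pituitary genes summed to 374.9 CPM in replicate 1 (group median 2.36), 5 choroid plexus genes to 1230 CPM in replicate 3 (group median 45.8) and 7 immune and wound genes to 166.5 CPM in replicate 6 (group median 14.3). In the PFC, 7 striatum genes summed to 1205 CPM in vehicle 4 weeks replicate 6 (group median 153.5), and the immune and wound genes reached 107.6 CPM in psilocybin 3 h replicate 5 (group median 19.4). In these pieces of tissue, fewer cells of a type and less RNA per cell cannot be told apart.

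The first question was where each gene was read. Trh, Ghrh and Gnrh1, and the receptor gene Crhr2, were higher in the hypothalamus than in the PFC in all 30 mice with both tissues. Crhbp and Crhr1 were higher in the PFC in all 30 mice, Crh in 27 of 30 and Sst in 23 of 30. All 8 members were called by the edgeR quasi-likelihood test (Benjamini-Hochberg adjusted p under 0.05 over all tested genes), 4 in each direction, where 76.2% of all tested genes did so, and so the count of members says little by itself. The extraction pools differ between the regions, so that region and extraction cannot be told apart.

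Trh (ENSMUSG00000005892.4, chr6:92242061-92244650, minus strand, GRCm38), the precursor of thyrotropin-releasing hormone, was read at 54.7 CPM in the lowest hypothalamus library, 77.7 CPM in the median and 118.5 CPM in the highest. In the PFC it was at 0, 1.04 and 9.39 CPM. No PFC library came near the lowest hypothalamus library, and the fold difference was 46.4 (log2 fold change -5.54 ± 0.23 SE, edgeR adjusted p = 3.31e-29).

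Ghrh (ENSMUSG00000027643.9, chr2:157329497-157347506, minus strand) spanned 1.53, 4.53 and 16.6 CPM (lowest, median and highest) in the hypothalamus. In the PFC, 17 of 31 libraries held no count of Ghrh, the highest was at 0.288 CPM and the 31 libraries held 42 counts in all, which left the gene near the limit of what these libraries can count. Its log2 fold change was -6.16 ± 0.25 (SE, edgeR adjusted p = 1.04e-30).

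Gnrh1 (ENSMUSG00000015812.8, chr14:67745181-67749436, plus strand), which is expressed by a small scattered group of neurons that reaches from the septum into the preoptic area, was at 1.74, 3.26 and 9.72 CPM in the hypothalamus and at 0, 0.302 and 1.10 CPM in the PFC. The 2 ranges did not overlap, and the log2 fold change was -3.35 ± 0.20 (SE, edgeR adjusted p = 7.49e-23).

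The receptors of the Crh system went opposite ways. Crhr2 (ENSMUSG00000003476.16, chr6:55090049-55133014, minus strand) was at 1.81, 3.21 and 5.66 CPM in the hypothalamus and at 0, 0.606 and 1.72 CPM in the PFC, with a log2 fold change of -2.47 ± 0.17 (SE, edgeR adjusted p = 3.76e-20). Crhr1 (ENSMUSG00000018634.10, chr11:104132855-104175523, plus strand) was at 6.55, 8.91 and 13.1 CPM in the hypothalamus and at 15.6, 24.5 and 35.2 CPM in the PFC, a 2.69-fold difference (log2 fold change 1.43 ± 0.06 SE, edgeR adjusted p = 1.34e-31). Neither pair of ranges overlapped.

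Crhbp (ENSMUSG00000021680.8, chr13:95431371-95444924, minus strand) was at 3.86, 7.16 and 10.1 CPM in the hypothalamus and at 16.1, 21.1 and 27.1 CPM in the PFC, 2.90-fold higher (log2 fold change 1.54 ± 0.07 SE, edgeR adjusted p = 1.73e-29). The ligand itself differed less: Crh (ENSMUSG00000049796.4, chr3:19693401-19695396, minus strand) was at 1.90, 4.15 and 7.03 CPM in the hypothalamus and at 4.08, 6.58 and 10.8 CPM in the PFC, with ranges that overlapped and a log2 fold change of 0.66 ± 0.10 (SE, edgeR adjusted p = 1.90e-08). Sst (ENSMUSG00000004366.4, chr16:23889573-23890958, minus strand) was at 55.1, 101.6 and 356.2 CPM in the hypothalamus and at 99.2, 127.1 and 224.6 CPM in the PFC. The PFC range lay within the hypothalamus range, the log2 fold change was 0.27 ± 0.09 (SE, edgeR adjusted p = 0.0068), and without the filter on low counts it was 0.22 with an adjusted p of 0.0586. Without the hypothalamus library that stood apart in Oxt and Avp it was 0.35 (edgeR adjusted p = 9.09e-06), and all 8 members were again called, 4 in each direction, where 78.8% of all tested genes were. In all, the ranges of 6 of the 8 members did not overlap between the regions, where those of 11.3% of all tested genes did not, and those of 2 (Crh and Sst) did.

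**Figure D1:**
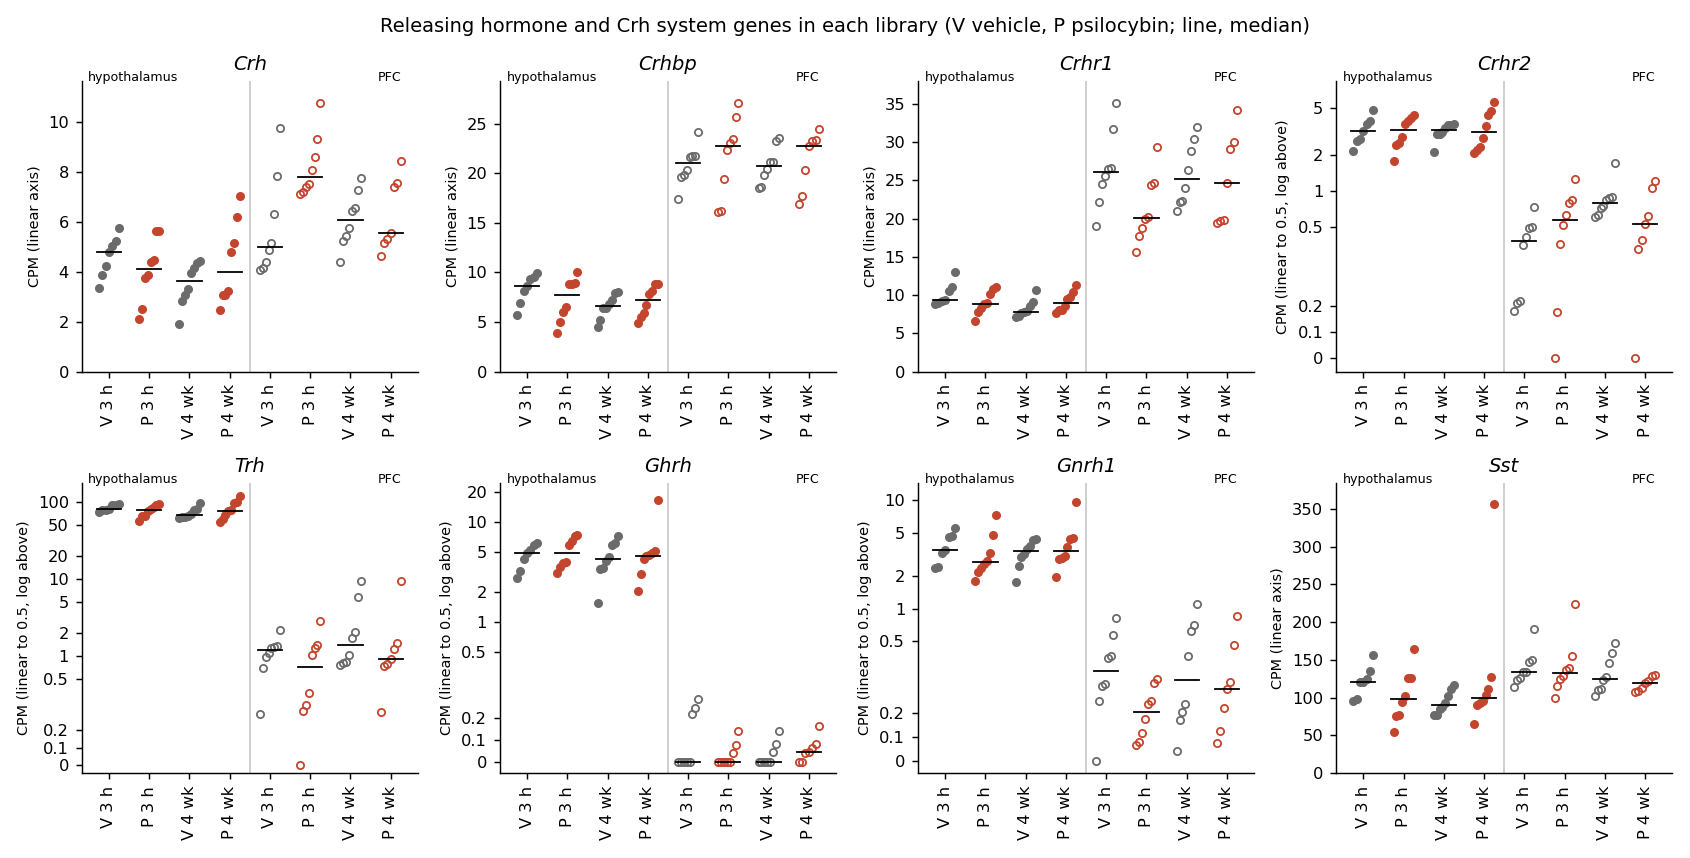
CPM of each of the 8 members that passed the filter, 1 point per library, in hypothalamus (filled, left) and PFC (open, right), for vehicle (V) and psilocybin (P) at 3 h and 4 weeks; short lines are group medians. Trh, Ghrh, Gnrh1 and Crhr2 sit higher in the hypothalamus, Crhbp and Crhr1 higher in the PFC, and 1 hypothalamus psilocybin 4 weeks library reaches 356.2 CPM of Sst.

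Levels of different genes can be compared only per length, here as CPM per kilobase of the gene length in the table (RPKM). On this scale Sst led both regions, at 155.2 ± 71.6 RPKM (SD, n = 31) in the hypothalamus and 184.7 ± 37.0 RPKM in the PFC. In the hypothalamus Trh followed at 56.8 ± 10.7 RPKM. Ghrh (7.51 ± 3.94), Gnrh1 (5.69 ± 2.58), Crhbp (4.04 ± 0.94), Crhr1 (3.70 ± 0.60) and Crh (3.12 ± 0.94) came next, each within 1 SD of its neighbour in that order, and Crhr2 was last at 0.646 ± 0.180 RPKM. In the PFC the order ran Crhbp (11.7 ± 1.53), Crhr1 (10.04 ± 2.08), Crh (5.02 ± 1.33), Trh (1.26 ± 1.65), Gnrh1 (0.536 ± 0.406), Crhr2 (0.121 ± 0.073) and Ghrh (0.0809 ± 0.122) after Sst. There Crhbp and Crhr1 did not differ beyond their spread, nor did Trh and Gnrh1, nor Crhr2 and Ghrh.

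Kiss1 (ENSMUSG00000116158.1) was listed at 0 in every library. In the GENCODE vM21 annotation, an earlier release than the one the authors used and on the same build, Kiss1 lies at chr1:133321875-133329722 and all 779 of its exon bases lie within exons of 2 genes named Gm28040 on the same strand, so that a count of 0 sets no limit on the level of Kiss1. The 2 genes named Gm28040 held 35 and 538 counts over the 62 libraries, of which 6 and 252 were from the hypothalamus. No read count of Kiss1 could therefore be compared between groups.

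Psilocybin was compared with vehicle in each region and at each time. In the hypothalamus 3 h after injection, none of the 8 members was called by edgeR, none had an unadjusted p under 0.05, and 0% of all tested genes were called (1.78% at an unadjusted p under 0.05). The log2 fold changes of psilocybin against vehicle ran from -0.23 (Crhbp) to 0.19 (Ghrh), with a median of -0.16 over the members against -0.00081 over all tested genes. Crh, the gene at the head of the stress axis, was at 3.36, 4.80 and 5.75 CPM (lowest, median, highest) in 7 vehicle mice and at 2.12, 4.12 and 5.66 CPM in 8 psilocybin mice, and the interval of its log2 fold change ran from -0.61 to 0.19. The psilocybin mouse was lower in 6 of the 7 cages with both libraries. In these groups Oxt and Avp summed to a median of 288.5 CPM after vehicle and 193.5 CPM after psilocybin, and the striatum genes to 174.9 and 103.6 CPM. The thalamus genes Tcf7l2, Prkcd, Lef1, Tnnt1, Plekhg1 and Ramp3 summed to 352.0 and 470.1 CPM, and the hypothalamus markers to 74.9 and 73.6 CPM. The part of these tissues in the differences was not tested.

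In the hypothalamus at 4 weeks, 0 members and 0% of all tested genes were called, with 1 member and 9.61% of all tested genes at an unadjusted p under 0.05. The 8 log2 fold changes were all above 0, from 0.12 (Crhbp) to 0.45 (Sst), with a median of 0.22 against 0.0097 over all tested genes, of which 52.2% were above 0. Without psilocybin replicate 5, the library that stood apart, 7 were above 0 and 1 below, from -0.12 (Ghrh) to 0.19 (Crh), and the median fell to 0.034 against 0.00064 over all tested genes. In that fit 0 members and 1.91% of all tested genes had an unadjusted p under 0.05. For Sst, vehicle mice read 76.9, 77.6, 85.6, 87.8, 92.8, 102.4, 111.1 and 117.3 CPM. Psilocybin mice read 65.8, 90.2, 93.0, 95.2, 103.2, 112.0, 128.0 and 356.2 CPM, the last being replicate 5, and 5 of the other 7 lay within the vehicle range. The edgeR log2 fold change of Sst was 0.45 ± 0.18 (SE, edgeR adjusted p = 0.448). It was 0.096 without replicate 5 (adjusted p = 1), and -0.031 with voom quality weights, a limma fit that lowers the weight of variable libraries. The same library held the highest hypothalamic level of Crh (7.03 CPM), Trh (118.5 CPM), Ghrh (16.6 CPM) and Gnrh1 (9.72 CPM).

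In the PFC 3 h after injection, 0 of the 8 members were called, where 0.0105% of all tested genes were, and 2 members and 7.23% of all tested genes had an unadjusted p under 0.05. Those 2 members were Crh and its receptor Crhr1. Crh was at 4.08, 4.16, 4.38, 4.86, 5.14, 6.32, 7.86 and 9.79 CPM in the vehicle mice and at 7.11, 7.22, 7.41, 7.50, 8.07, 8.61, 9.34 and 10.8 CPM in the psilocybin mice. All 8 psilocybin values lay above the vehicle median of 5.00 CPM and 1 lay above the highest vehicle value, and within cages the psilocybin mouse was higher in 8 of 8.

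The 1.42-fold difference of Crh had a log2 value of 0.51 ± 0.19 (SE) and an interval from 0.13 to 0.89. It did not pass in edgeR (adjusted p = 0.587), nor with DESeq2 (log2 fold change 0.51, adjusted p = 0.409) or with the cage as replicate block (0.53, adjusted p = 0.616). It passed with voom quality weights and the animal as block, at 0.64 and an adjusted p of 0.0212, in a fit that called 1232 genes (6.49% of all tested genes) in this comparison. The library weights of that fit ran from 0.28 (replicate 3) to 1.45 (replicate 2) in vehicle mice. In psilocybin mice they ran from 0.12 (replicate 7) to 1.79 (replicate 3). In the same fit without the library of each region that was highest in immune and wound genes, Crh was again called, at 0.64 (adjusted p = 0.0215, where 6.42% of all tested genes were called) without the hypothalamus library and 0.65 (adjusted p = 0.0213) without the PFC library, psilocybin 3 h replicate 5. Leaving out single libraries, the hypothalamus library that stood apart among them, moved the edgeR estimate between 0.44 and 0.67. No member was called in those fits, where between 0.00526% and 0.0582% of all tested genes were.

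Crhr1 went the other way in the same mice. The vehicle mice were at 19.0, 22.1, 24.5, 25.6, 26.5, 26.6, 31.7 and 35.2 CPM and the psilocybin mice at 15.6, 17.7, 18.7, 19.9, 20.2, 24.3, 24.6 and 29.4 CPM. The ranges overlapped, and 1 of 8 psilocybin values lay above the vehicle median of 26.1 CPM, with the psilocybin mouse lower in 6 of 8 cages. The log2 fold change was -0.31 ± 0.11 (SE, edgeR adjusted p = 0.531), and with voom quality weights the adjusted p was 0.0502, or 0.0365 without psilocybin 3 h replicate 5, in a fit that called 7.87% of all tested genes. Crhbp differed by 0.05 on the log2 scale (interval -0.20 to 0.31) and Sst by 0.00078 (interval -0.36 to 0.36). Gnrh1, at under 1 CPM, was at 0.206 CPM in the median psilocybin mouse and 0.376 CPM in the median vehicle mouse, with a log2 fold change of -0.87 and an interval that ran from -1.84 to 0.09. The psilocybin mouse was lower in Gnrh1 in 7 of 8 cages, and 0 of 8 psilocybin values lay above the vehicle median. In the same libraries the 4 cortical excitatory markers summed to a median of 1678 CPM after vehicle and 1460 CPM after psilocybin, and 10 cortical interneuron markers to 1002 and 1042 CPM. Their part in these differences was not tested.

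In the PFC at 4 weeks, 0 members and 0% of all tested genes were called, and 0 members and 2.4% of all tested genes had an unadjusted p under 0.05. Crh was at 4.39, 6.09 and 7.77 CPM (lowest, median, highest) in 8 vehicle mice and at 4.63, 5.57 and 8.42 CPM in 7 psilocybin mice, a log2 fold change of 0.04 with an interval from -0.35 to 0.44. Crhr1 was at -0.02, with an interval from -0.24 to 0.20. Whether the effects at 3 h and 4 weeks differed is given with the interaction terms.

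**Figure D2:**
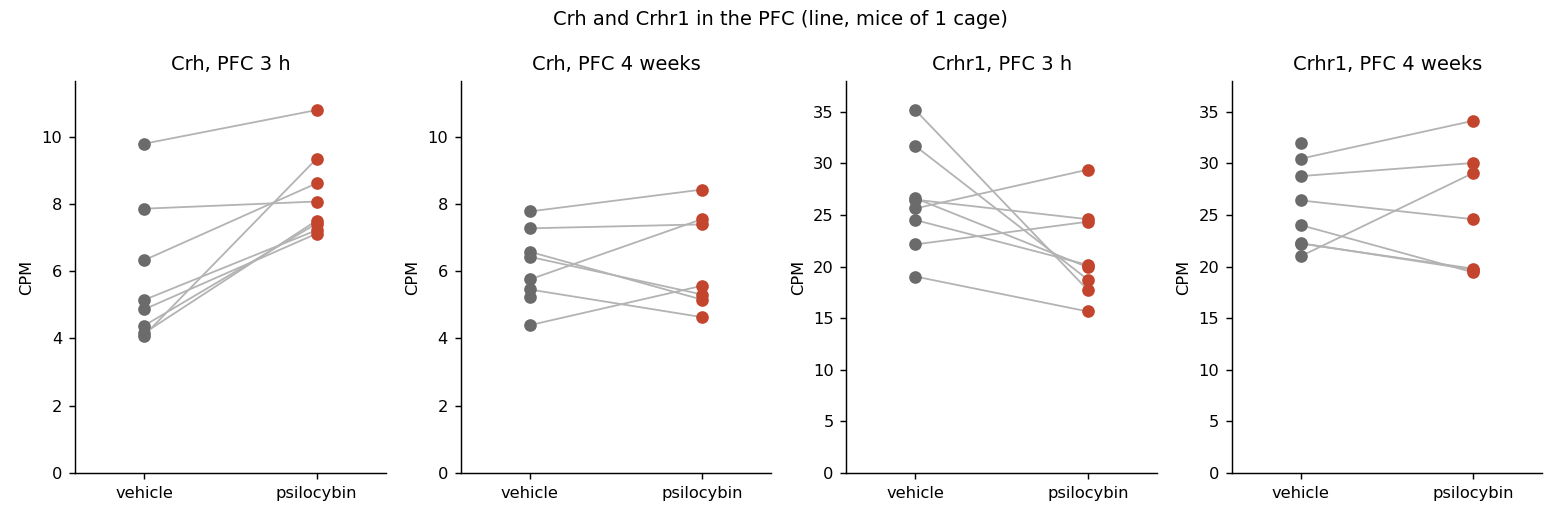
Crh and Crhr1 in the PFC, in CPM, for vehicle (grey) and psilocybin (red) mice at 3 h and 4 weeks; grey lines join mice of the same cage number and each axis starts at 0. At 3 h 8 of 8 Crh lines slope up from vehicle to psilocybin and 6 of 8 Crhr1 lines slope down, and at 4 weeks the lines of both genes run either way.

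**Figure D3:**
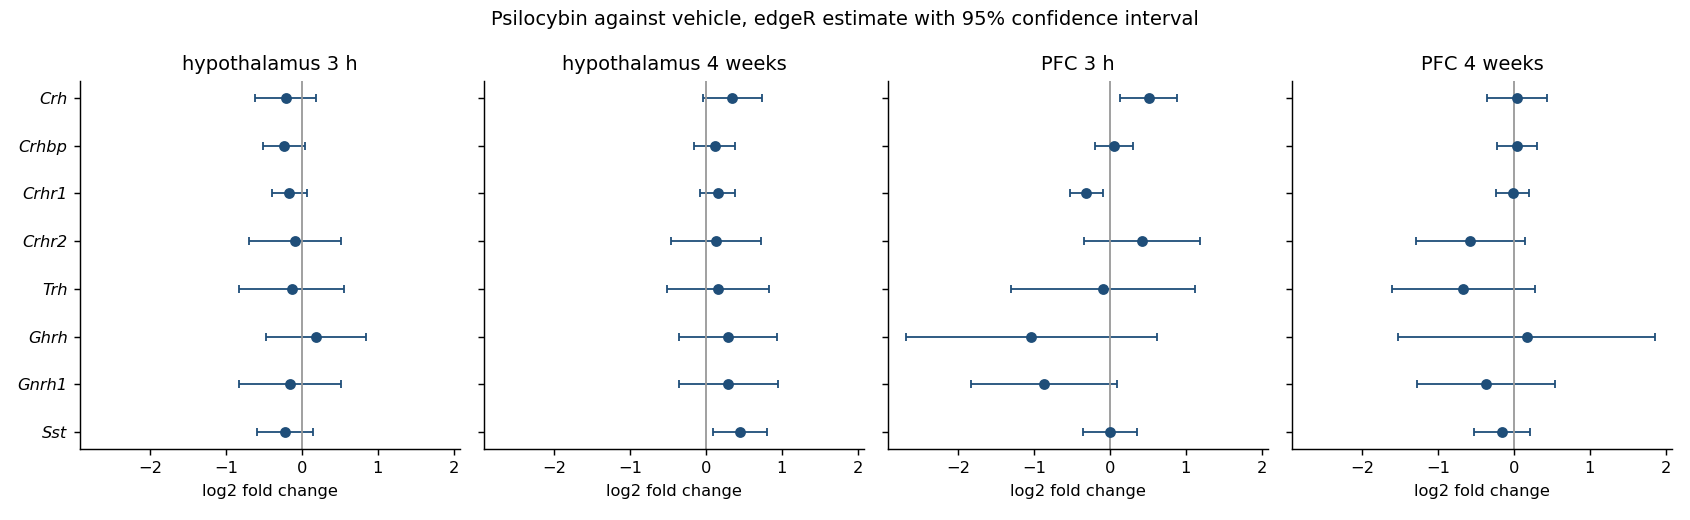
Log2 fold change of psilocybin against vehicle (edgeR estimate, bars 95% confidence interval) for the 8 members in each region and time. The intervals of Crh and Crhr1 in the PFC at 3 h and of Sst in the hypothalamus at 4 weeks lie off 0 before adjustment, and those of Ghrh, Trh and Gnrh1 in the PFC are wide.

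The difference between 3 h and 4 weeks was compared within each treatment and region, as 3 h relative to 4 weeks. In the hypothalamus of vehicle mice 0 members were called, where 0.685% of all tested genes were, and 2 members and 8.09% of all tested genes had an unadjusted p under 0.05: Crhbp, with a log2 fold change of 0.34 ± 0.14 (SE, edgeR adjusted p = 0.435), and Crhr1, with 0.30 ± 0.12 (SE, edgeR adjusted p = 0.385). Without the psilocybin library that stood apart, which is in neither group but shares the fit, 0 members and 1.19% of all tested genes were called, and 4 members (Crh, Crhbp, Crhr1 and Sst) and 10.9% of all tested genes had an unadjusted p under 0.05. Crhbp was at 5.75, 8.60 and 9.90 CPM (lowest, median, highest) at 3 h and at 4.50, 6.63 and 7.98 CPM at 4 weeks, and passed with voom quality weights (0.45, adjusted p = 0.0229), a fit that called 7.25% of all tested genes in this comparison. In psilocybin mice 0 members were called against 1.16% of all tested genes (0.794% without the library that stood apart), and 0 members had an unadjusted p under 0.05 against 17.4% (10.1% without it). The 8 log2 fold changes were all above 0 in vehicle mice, from 0.0039 (Ghrh) to 0.39 (Crh), where 50.7% of all tested genes were above 0. In the same mice the 7 striatum genes summed to 95.8, 174.9 and 342.8 CPM (lowest, median, highest) at 3 h and to 98.6, 104.0 and 358.5 CPM at 4 weeks, and their part in these differences was not tested. In psilocybin mice all 8 were below 0, where 55.6% of all tested genes were, but without the library that stood apart 6 were above 0 and 2 below, and the median went from -0.13 to 0.030. Without the libraries with most pituitary, choroid plexus or immune and wound RNA, each left out in turn, the vehicle value of Crhbp was 0.37, 0.33 and 0.35, and that of Crhr1 was 0.35, 0.28 and 0.32, with no call.

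In the PFC of vehicle mice 1 of the 8 members was called, Trh, where 4.72% of all tested genes were (2 members and 18% of all tested genes at an unadjusted p under 0.05). At 3 h the vehicle mice read 0.298, 0.705, 0.963, 1.11, 1.26, 1.30, 1.34 and 2.19 CPM of Trh. At 4 weeks they read 0.770, 0.816, 0.836, 1.04, 1.71, 2.02, 5.84 and 9.29 CPM, the last 2 being replicates 5 and 3, while the other 6 lay within the 3 h range. The log2 fold change was -1.60 ± 0.50 (SE, edgeR adjusted p = 0.0484). It was -0.62 without replicate 3 (adjusted p = 0.54) and -1.46 without replicate 5 (adjusted p = 0.1), and the call was also lost with DESeq2 (-1.36, adjusted p = 0.0629), with voom quality weights (-0.70, adjusted p = 0.512) and with the cage as replicate block (-1.34, adjusted p = 0.14).

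The libraries with most Trh were not alike in hypothalamus markers. Replicate 3 held 3.09 CPM of the 7 hypothalamus markers, the highest of the 31 PFC libraries, and 9.96 CPM of Oxt and Avp against at most 3.56 CPM in the others. Replicate 5 held 0 CPM of the 7 markers and 0.992 CPM of Oxt and Avp. A PFC psilocybin 4 weeks library, replicate 7, held 9.39 CPM of Trh with 0.402 CPM of the markers. The part of hypothalamic RNA in the difference between the times was not tested.

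**Figure D4:**
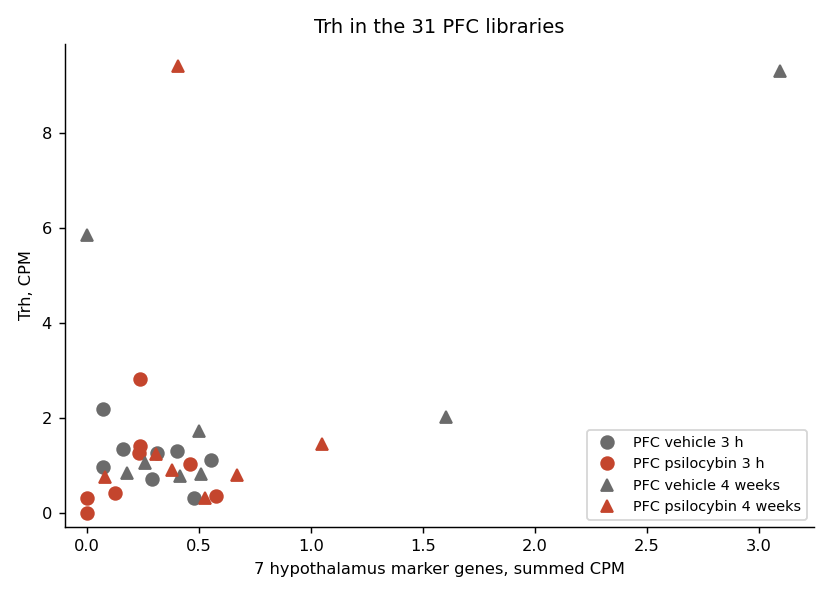
Trh in CPM against the summed CPM of 7 hypothalamus marker genes in the 31 PFC libraries (circles 3 h, triangles 4 weeks; grey vehicle, red psilocybin). The 3 libraries above 5 CPM of Trh are all from 4 weeks, and 1 of them has the highest marker sum.

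Crhr2 was the other member with an unadjusted p under 0.05 in vehicle PFC. It was at 0.179, 0.446 and 0.737 CPM (lowest, median, highest) at 3 h and at 0.606, 0.793 and 1.72 CPM at 4 weeks, with a log2 fold change of -1.07 ± 0.36 (SE, edgeR adjusted p = 0.0751). The ranges overlapped in the 3 h mouse with the highest value. DESeq2 called it (adjusted p = 0.0184, where 6.04% of all tested genes were called), and so did edgeR without the 3 h mouse with that value, replicate 6 (adjusted p = 0.0428, with 5.06% of all tested genes called), and without the hypothalamus library that stood apart (adjusted p = 0.0493, with 8.32% called). The 4 weeks mouse at 1.72 CPM was replicate 6, the library with 1205 CPM of striatum genes, and without it the log2 fold change was -0.85 (adjusted p = 0.217). In psilocybin PFC 0 members were called against 5.96% of all tested genes, and 2 members and 20.4% of all tested genes had an unadjusted p under 0.05: Crh at 0.39 ± 0.20 (SE, edgeR adjusted p = 0.243) and Crhr1 at -0.26 ± 0.11 (SE, edgeR adjusted p = 0.164), which was -0.54 (adjusted p = 0.168) with all 64 libraries. Both share their 3 h psilocybin mice with the comparison against vehicle. With single libraries left out in turn, 0 members were called for time in psilocybin PFC, where between 3.69% and 11.3% of all tested genes were.

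Whether the effects themselves differed was tested with interaction terms in the same edgeR fit. No member was called in any of the 5, where 0% of all tested genes were called in 4 and 0.0369% in the comparison of the vehicle time difference between regions. With single libraries left out in turn, no member was called, and the share in that last comparison ran from 0.0314% to 0.0847% of all tested genes. At an unadjusted p under 0.05 the psilocybin effect at 3 h against 4 weeks gave 1 member and 5.27% of all tested genes in the hypothalamus and 0 members and 3.08% in the PFC. The psilocybin effect in the PFC against the hypothalamus gave 1 member and 2.78% at 3 h and 1 member and 6.69% at 4 weeks, and the vehicle time difference between regions gave 2 members and 5.84%. The effect of psilocybin on Crh at 3 h was 0.72 ± 0.28 (SE) higher in the PFC than in the hypothalamus on the log2 scale (adjusted p = 1). Its effect on Crh in the PFC was 0.47 ± 0.27 (SE) higher at 3 h than at 4 weeks (adjusted p = 1). For Sst the effect in the hypothalamus was -0.67 ± 0.26 (SE) at 3 h relative to 4 weeks (adjusted p = 0.904), and -0.33 ± 0.20 (SE, adjusted p = 1) without the library that stood apart. The Sst effect at 4 weeks was -0.60 ± 0.26 (SE) in the PFC relative to the hypothalamus (adjusted p = 0.737), and -0.25 ± 0.20 (SE, adjusted p = 1) without it. In these 2 terms 0 members had an unadjusted p under 0.05 without that library, where 2.28% and 2.85% of all tested genes did. The vehicle time difference was lower in the PFC than in the hypothalamus for Trh (-1.81 ± 0.61 SE, adjusted p = 0.444) and Crhr2 (-1.13 ± 0.47 SE, adjusted p = 0.714). The Trh value was -0.82 (adjusted p = 0.977) without PFC vehicle 4 weeks replicate 3 and -0.91 (adjusted p = 0.58) with voom quality weights.

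The members were then compared with each other across the 31 hypothalamus libraries, after group and extraction pool were removed from the log2 CPM. Cage was not removed, and the permutations took the 31 libraries as independent of one another. Sst, Ghrh and Gnrh1 varied together: Ghrh and Sst had Pearson's r = 0.80 and Spearman's rho = 0.74 (permutation p = 1e-05 for both, the smallest that 100000 permutations can give, adjusted p = 0.00014 and 0.00028 over 28 pairs), and r was 0.76 without the 2 libraries farthest from the median of Ghrh and 0.70 without the library that stood apart. Gnrh1 and Sst had r = 0.71 (rho 0.66, permutation adjusted p = 0.00014 and 0.00084) and 0.62 without that library. Ghrh and Gnrh1 had r = 0.69 (rho 0.72, permutation adjusted p = 0.000467 and 0.0007) and 0.59 without it. Crh and Crhr2, ligand and receptor, had r = 0.62 (rho 0.57, permutation adjusted p = 0.00175 and 0.00623) and 0.55 without it.

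Of the 28 pairs, 13 passed on Pearson's r, 4 on Spearman's rho and 4 on Pearson's r without the library that stood apart. The 4 pairs given above passed in all 3 counts. Trh with Ghrh, for example, went from r = 0.51 to 0.34 without that library. The first principal component of all genes held 33.7% of the variance among these libraries, and its correlation with Sst was 0.78 in size, with Ghrh 0.62 and with Gnrh1 0.59. Its part in these correlations was not tested.

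**Figure D5:**
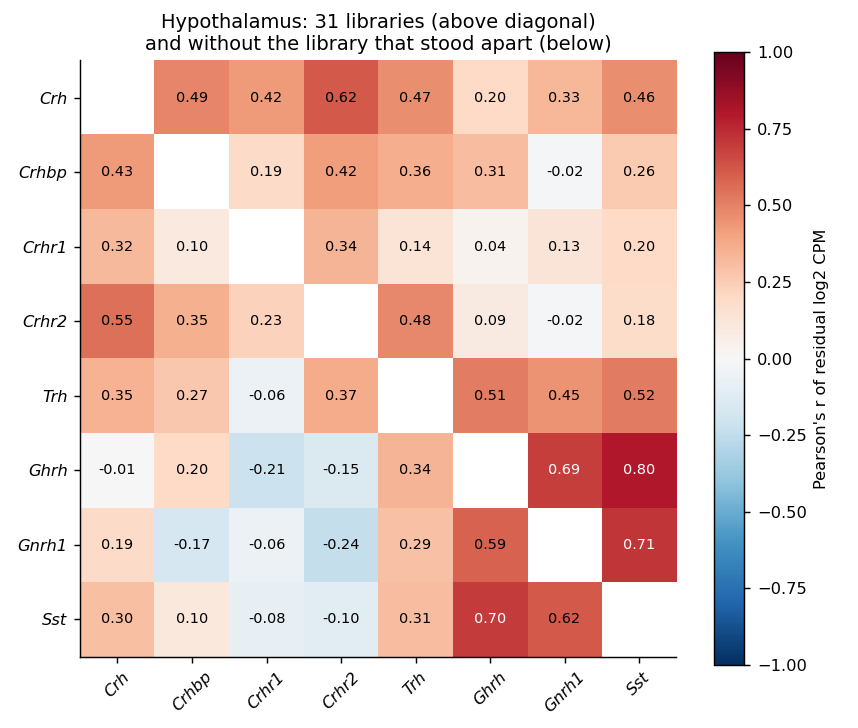
Pearson's r between members across hypothalamus libraries, from log2 CPM with group and extraction pool removed, for all 31 libraries above the diagonal and without the hypothalamus psilocybin 4 weeks replicate 5 library below it. Ghrh, Gnrh1 and Sst form the block with the highest values on both sides, from 0.69 to 0.80 above and from 0.59 to 0.70 below.

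In the PFC, 2 of 10 pairs of the 5 members at 1 CPM or more passed on Pearson's r, Crhbp with Sst (r = 0.52, rho 0.54, permutation adjusted p = 0.0122 and 0.0084) and Crhr1 with Sst (r = 0.52, rho 0.40, permutation adjusted p = 0.0122 and 0.0907). Without the 2 libraries farthest from the median of the first gene, r was 0.43 (permutation adjusted p = 0.133) and 0.34 (permutation adjusted p = 0.136), and neither pair passed. On Spearman's rho 2 of the 10 pairs passed, Crhbp with Sst and, with the opposite sign, Crh with Trh (rho = -0.54, permutation adjusted p = 0.0084), for which r was -0.39 (permutation adjusted p = 0.0954) and -0.38 without the 2 libraries farthest from the median of Crh.

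The genes whose variation was most like that of a member were named by Pearson's r over the same 31 libraries, as a description over libraries that share preparation and depth. In the hypothalamus Crhbp was nearest to Pmch, melanin-concentrating hormone of the lateral hypothalamus (r = 0.81, and 0.81 without the library that stood apart), and to Hcrt, the orexin precursor of the same area (0.72, and 0.70 without it). Gfra2 came next to Hcrt at 0.68, and was above Hcrt without that library, at 0.74. Ghrh was nearest to Agrp, an appetite-promoting peptide of the arcuate nucleus (0.89), Trh to Mrap2, an accessory protein of melanocortin receptors (0.88), Sst to Eci2 (0.92), Gnrh1 to Eef1a1 (0.89) and Crh to Smap2 (0.85), values that were 0.85, 0.85, 0.87, 0.85 and 0.85 without that library. The receptors were nearest to 2810410L24Rik (Crhr1, 0.78, and 0.75 without it) and Hexdc (Crhr2, 0.79, and 0.77 without it). In the PFC the highest values were 0.85 for Crhr1 with Tbc1d10b and 0.85 for Sst with Ptms, Crh was nearest to Chsy1 (0.75) and Crhbp to Stmn1 (0.69), and Trh was nearest to Gabrq (0.68) and Th, tyrosine hydroxylase (0.67).

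A list of 26 genes of the same pathways (the other Crh family ligands, the receptors and degrading enzyme of Trh, cortistatin and the somatostatin receptors, the receptors of Ghrh and ghrelin, the gonadotropin-releasing hormone and kisspeptin systems, and peptide-processing enzymes) was followed alongside, and 23 passed the filter. Between the regions 7 were higher in the PFC and 13 lower, 20 of 23 where 76.2% of all tested genes were called, and the median log2 fold change was -0.39 against 0.019 over all tested genes. Of the 6 genes of the Sst system 4 were higher and 2 lower (Sstr5 and Sstr1, somatostatin receptors, at -4.19 and -0.28, edgeR adjusted p = 3.31e-25 and 0.00169). Among those higher, Sstr3 and Cort, a somatostatin receptor and the related peptide cortistatin, had log2 fold changes of 1.81 and 4.63 (edgeR adjusted p = 9.35e-40 and 4.14e-33). Among those lower in the PFC were Ghsr, the ghrelin receptor (-5.87, edgeR adjusted p = 3.24e-35), Tacr3, the neurokinin B receptor (-4.47, edgeR adjusted p = 6.5e-31), and Trhr, a receptor of Trh (-2.56, edgeR adjusted p = 2.82e-26).

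None of the 23 was called for psilocybin in either region at either time, with 1, 3, 0 and 2 of them at an unadjusted p under 0.05 in the hypothalamus at 3 h and 4 weeks and in the PFC at 3 h and 4 weeks, where 1.78%, 9.61%, 7.23% and 2.4% of all tested genes were. Without the library that stood apart, the 3 in the hypothalamus at 4 weeks became 0, where 1.91% of all tested genes were. For time, 1 was called, in a comparison that called 4.72% of all tested genes: Ucn3, urocortin 3, a ligand of Crhr2, in the PFC of vehicle mice (log2 fold change -3.57 ± 1.01 SE, edgeR adjusted p = 0.0298). At 4 weeks it was read in 1 of 8 vehicle mice, replicate 3, with 52 counts, and at 3 h in 1 of 8, with 1 count, so that the call comes from a single library, which is also the PFC library with 9.29 CPM of Trh and the highest hypothalamus marker sum. In psilocybin PFC 0 of the 23 were called for time, against 5.96% of all tested genes. Without the hypothalamus library that stood apart, which is in neither group but shares the fit, 3 were called against 11.3% of all tested genes: Scg5 (log2 fold change 0.15, edgeR adjusted p = 0.0273), Tac2 (0.50, edgeR adjusted p = 0.0339) and Cpe (0.24, edgeR adjusted p = 0.0397), which were named after their values were seen.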

How the data were processed

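The authors made polyA-selected stranded libraries (TruSeq) from hypothalamus and frontal cortex, and per the labels' processing notes and the study's methods used bcl2fastq 2.20.0, STAR 2.7.2b and featureCounts 1.6.2 on GRCm38 with GENCODE vM25. They deposited raw counts per gene. Here libraries under 1000000 counts were left out (2 of 64). Symbols came from the reference gene table (55141 of 55401 IDs matched). Counts were fitted with edgeR 4.0.16 (R 4.3.3): TMM, filterByExpr by group with minimum count 10, robust quasi-likelihood, 8 groups plus extraction pool in 1 fit of 62 libraries, 14 contrasts, Benjamini-Hochberg over 18971 genes, threshold 0.05. A voom fit with quality weights and the animal as block (limma 3.58.1), the kind of fit the study used, and DESeq2 1.42.0 were alternatives. The study also left out a library rich in wound healing and immune genes, which its methods do not name and which was kept here, so the voom fit is not the study's own. CPM used TMM library sizes, and RPKM the gene length column. On counts simulated for psilocybin against vehicle in the hypothalamus at 3 h (18832 genes, 200 changed 2-fold), the edgeR fit recovered 183 of the 200. Of its 201 calls, 18 were of unchanged genes. The changed genes were drawn only from those above a floor on mean count, so this recovery does not cover low-count members or smaller differences.

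Cage numbers in the labels pair the samples. After removal of the group mean, same-cage libraries had a mean correlation of 0.0869 in the hypothalamus and 0.109 in the PFC, against -0.0382 and -0.0455 for other pairs. The 2 regions of a mouse had 0.105, against -0.00113 for other pairs between regions. Same-cage libraries also shared an extraction pool, which was not removed here, so that cage and pool cannot be told apart. Correlations used residuals of log2(CPM + 0.5) and 100000 permutations. The members, and the lists of pathway and marker genes, were chosen with earlier results of these data known. All 9 members are named. From the pathway list, genes called in a comparison are named, at most the 3 with the smallest p in each direction, and Sstr5 and Sstr1 were added after their values were seen. For each member at 1 CPM or more, 1 or 2 of the 3 genes with the highest correlation are named, and for Crhbp in the hypothalamus all 3, Gfra2 being added after its values were seen.

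Depth was 8061033 to 70361839 counts per library, and counting error is largest for Ghrh, Gnrh1, Crhr2 and Trh in the PFC.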

Additional observations from a re-analysis of the deposited data

Results flagged for a closer look

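Among 64 sets of a member in a group, 7 held a library farther from the others than Dixon's 95% critical value allows, where chance gives about 1 in 20. Of these, 3 were the same library, hypothalamus psilocybin 4 weeks replicate 5, with 356.2 CPM of Sst (next 128.0 CPM), 16.6 CPM of Ghrh (next 5.17 CPM) and 9.72 CPM of Gnrh1 (next 4.51 CPM). The others were PFC psilocybin 4 weeks replicate 7 with 9.39 CPM of Trh (next 1.45 CPM), PFC psilocybin 3 h replicate 7 with 224.6 CPM of Sst (next 155.2 CPM), PFC vehicle 4 weeks replicate 6 with 1.72 CPM of Crhr2 (next 0.889 CPM), and hypothalamus vehicle 4 weeks replicate 5 with 2.12 CPM of Crhr2, the lowest of its group (next 3.02 CPM). The 2 Trh values of 5.84 and 9.29 CPM in the PFC of vehicle mice at 4 weeks were not among the 7, since each is the other's neighbour.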

How the results depend on the processing

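Each comparison was repeated with DESeq2-type size factors, no filter on low counts, DESeq2, voom quality weights, no extraction pool, a replicate block (cage within region, or animal between regions), only the groups compared, all 64 libraries, and each library left out. The region comparison uses all groups, so the fit with only the groups compared adds nothing there. Between regions 8 members were called throughout, except that Sst was lost without the filter. For psilocybin, the count of members called went from 0 to 1 with voom quality weights in the PFC at 3 h (Crh, in a fit that called 6.49% of all tested genes), and Sst in the hypothalamus at 4 weeks turned to -0.031 with the same weights. For time in hypothalamus vehicle mice it went from 0 to 1 with voom quality weights (Crhbp, in a fit that called 7.25% of all tested genes) and with only the groups compared (Sst, log2 fold change 0.33, adjusted p = 0.0203, in a fit that called 3.98%). For time in PFC vehicle mice it went from 1 to 0 with no filter, no extraction pool, the replicate block, only the groups compared, all 64 libraries and voom quality weights. Leaving out single libraries there gave between 0 and 2 members and called between 2.52% and 8.32% of all tested genes. DESeq2, which called 6.04% of all tested genes there, lost Trh and called Crhr2. Trh was lost when vehicle replicates 3 or 5 at 4 weeks, or 1, 3, 4, 6, 7 or 8 at 3 h, were left out. DESeq2 called 0 members in the 4 psilocybin comparisons and the 5 interactions, where it called between 0% and 0.337% of all tested genes. Voom quality weights called Crh alone among these, and outside the PFC at 3 h called between 0% and 0.132% of all tested genes in them. In 2 further voom fits, chosen after seeing the data, the library highest in immune and wound genes was left out. Without the hypothalamus library (vehicle 4 weeks replicate 6) the calls in these comparisons were as with voom on 62 libraries, and Sst in the hypothalamus at 4 weeks was -0.030. Without the PFC library (psilocybin 3 h replicate 5) 2 members were called for psilocybin in the PFC at 3 h (Crh and Crhr1, where 7.87% of all tested genes were), and Sst was -0.031. In both fits Crhbp was called for time in hypothalamus vehicle mice (1, where 6.47% and 7.26% of all tested genes were) and Trh was not in PFC vehicle mice (0). The paired fit with the replicate block changed no other call. The cause of these changes was not tested. Of 13 correlations past the threshold in the hypothalamus, 4 stayed past it without the library that stood apart, a choice made after seeing the data. Order by CPM in place of RPKM moved 5 places in the hypothalamus and 4 in the PFC. Depth limits Ghrh in the PFC most, where 17 of 31 libraries had no count.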
